A study of Mus musculus with 13 samples.

Results

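The 8 genes described here belong to cholesterol homeostasis. They are Srebf2, Hmgcs1, Idi1, Fdft1, Sqle, Lss, Cyp51 and Insig1. They were chosen by name from the 13222 genes of the deposited table, and all 8 were listed and were among the 12319 genes tested. The label under which they were grouped speaks of synthesis and uptake, but none of the 8 encodes an uptake receptor, so genes of uptake are described as a separate list below. Transcripts were measured by 3' mRNA sequencing in 4T1-Thy1.1 cells, a BALB/c mouse mammary carcinoma line carrying a Thy1.1 transgene. All libraries came from this 1 line, plated in 12 well dishes and treated for 48 hours. Control cells received neither agent (n = 3), DOX cells received doxorubicin, a topoisomerase II poison, at 200 ng/mL (n = 4), IL-17A cells received recombinant mouse IL-17A at 25 ng/mL (n = 3), and DOX+IL-17A cells received both at these doses (n = 3). The culture medium contained serum in every group (DMEM/F12 by the labels, RPMI by the study's methods). The labels do not say whether the replicates were separate cultures, so p-values measure only the spread between these libraries. In bulk RNA, a loss of cells of some state and less RNA of a gene per cell cannot be told apart.

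Cholesterol is made from acetyl-CoA through mevalonate, the isoprenoids, squalene and lanosterol. When sterols in the endoplasmic reticulum run low, SCAP escorts SREBP-2 to the Golgi, where proteases release its active fragment, which enters the nucleus and raises transcription of nearly every enzyme of the route and of genes of cholesterol uptake. When sterols are plentiful, INSIG proteins hold SCAP in the endoplasmic reticulum. Transcripts of the route are therefore widely used as a readout of SREBP-2 activity. Of the 8 genes, Srebf2 encodes SREBP-2 and Insig1 the retention protein, itself a target. Hmgcs1 makes HMG-CoA, Idi1 isomerizes isopentenyl diphosphate, Fdft1 joins farnesyl diphosphate into squalene, Sqle epoxidizes squalene, Lss closes the rings to lanosterol and Cyp51 removes a methyl group of lanosterol.

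The genes lie on 5 chromosomes of the mm10 mouse genome (GRCm38, GENCODE), and all are protein coding. Srebf2 spans chr15:82147181-82205379 and Sqle chr15:59315077-59331192, both on the plus strand. Hmgcs1 spans chr13:119690379-119708260 and Idi1 chr13:8885501-8892451, both on the plus strand. Insig1 spans chr5:28071363-28078662 on the plus strand and Cyp51 chr5:4081145-4104746 on the minus strand. Lss spans chr10:76531588-76557138 on the plus strand and Fdft1 chr14:63145150-63179578 on the minus strand. RefSeq promoter windows of 300 bases (GRCm38.p6), each reaching from upstream of the start site into the transcript, were at hand for 6 of the 8 genes, Fdft1 and Sqle having no entry. Both strands were searched for 4 sets of letters. TCACNCCA, letters like those of the sterol response element, were found in 2 of the 6 windows (Srebf2 and Hmgcs1) against 4.36% of all 32817 windows. CCAAT, the letters of the NF-Y box, were found in 6 of 6 windows against 37.4%, GGGCGG, the GC box read by SP1, in 6 of 6 against 35.6%, and the E-box CACGTG in 1 of 6 (Insig1) against 7.15%. These matches are letters in a window, and binding was not measured.

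The windows of Hmgcs1 (chr13:119690101-119690400, plus strand), Srebf2 (chr15:82147019-82147318, plus strand) and Insig1 (chr5:28071162-28071461, plus strand) are shown because they hold the TCACNCCA and CACGTG matches and belong to genes whose transcripts varied together. Capitals mark TCACNCCA, the CCAAT box on either strand and the E-box, none of which overlap. The GC box is not marked.
Hmgcs1: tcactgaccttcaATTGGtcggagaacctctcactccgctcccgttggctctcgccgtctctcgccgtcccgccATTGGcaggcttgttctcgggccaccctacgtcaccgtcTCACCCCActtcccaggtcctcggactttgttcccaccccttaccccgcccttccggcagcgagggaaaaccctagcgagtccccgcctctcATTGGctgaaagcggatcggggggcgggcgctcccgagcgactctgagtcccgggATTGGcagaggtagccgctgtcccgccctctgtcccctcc
Srebf2: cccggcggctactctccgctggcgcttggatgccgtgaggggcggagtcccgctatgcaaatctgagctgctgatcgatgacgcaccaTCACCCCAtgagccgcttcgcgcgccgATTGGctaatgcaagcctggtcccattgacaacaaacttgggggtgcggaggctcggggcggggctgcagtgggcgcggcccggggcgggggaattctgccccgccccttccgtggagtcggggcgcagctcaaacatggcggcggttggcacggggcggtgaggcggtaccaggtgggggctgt
Insig1: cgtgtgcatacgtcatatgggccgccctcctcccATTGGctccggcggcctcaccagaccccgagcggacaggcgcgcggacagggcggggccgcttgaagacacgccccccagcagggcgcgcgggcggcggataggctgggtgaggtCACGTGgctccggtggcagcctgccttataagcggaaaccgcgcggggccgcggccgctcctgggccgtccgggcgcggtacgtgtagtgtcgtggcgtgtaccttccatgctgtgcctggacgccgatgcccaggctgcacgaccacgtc
The TCACNCCA match started at position 114 of the Hmgcs1 window, 137 bases before the start site of that window. In the Srebf2 window it started at position 89, 162 bases before the start site of that window. These start sites are those of the RefSeq windows and differ from the GENCODE gene starts given above. Hmgcs1 held 4 CCAAT matches, all on the minus strand.

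Between 4445592 and 16930600 reads fell on listed genes in a library, and values are reads scaled by the authors to an effective library size. A count of 3 reads corresponded to 0.183 to 0.614 on this scale, and no value of the 8 genes rested on fewer than 77 reads. Of 6 epithelial markers (Epcam, Cdh1 and keratins) all were detected, with summed values of 1932 to 2248 in control, 1706 to 2050 with IL-17A, 935 to 1034 with DOX. With both agents they were 816 to 1033. The summed muscle markers were 133 in DOX replicate 1 and 3.14 to 21.2 elsewhere, and that library was also highest in red blood cell genes (66.5). Immune markers (2 of 5 listed) summed to at most 19.4, liver markers (1 of 5 listed) to at most 2.25, and fibroblast and endothelial markers (3 of 5 listed) lay between 23.1 and 97.6. DOX replicate 1 thus stood apart, and the comparisons that use DOX libraries are also given without it.

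The regulators come first. Srebf2 stood at 53.1, 33.8 and 29.4 in control replicates 1, 3 and 5, and at 35.9, 27.6, 14.96 and 9.12 in DOX replicates 1 to 4. With DOX+IL-17A it was 35.8, 29.6 and 13.2 in replicates 2, 3 and 5, and with IL-17A 30.1, 34.4 and 30.03. The IL-17A libraries lay close together, whereas the DOX libraries spread 3.94-fold and overlapped the control range. Insig1, the most variable regulator, was 184, 64.8 and 64.1 in control and 134, 119, 29.1 and 33.9 with DOX. It was 267, 64.7 and 38.7 with DOX+IL-17A and 117, 70.4 and 68.5 with IL-17A. Its highest value of all 13 libraries and its values under 40 came from DOX-treated cells, and in every group a single library or pair stood well above the rest.

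Of the early enzymes, Hmgcs1 was 477, 269 and 287 in control and 336, 304, 89.8 and 81.0 with DOX. It was 256, 109 and 98.3 with DOX+IL-17A and 552, 245 and 249 with IL-17A. DOX replicates 3 and 4 lay below every control and IL-17A library, while DOX replicates 1 and 2 lay within their range. Idi1 was 37.1, 18.2 and 19.3 in control and 51.6, 144, 10.8 and 9.30 with DOX, a 15.5-fold spread within 1 condition. It was 69.5, 19.4 and 11.9 with DOX+IL-17A and 41.5, 28.1 and 10.1 with IL-17A, and all 4 groups overlapped.

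Of the squalene enzymes, Fdft1 was tightest in control, at 77.8, 90.9 and 87.6, and it was 97.5, 77.5, 34.8 and 37.1 with DOX. It was 78.3, 30.5 and 44.5 with DOX+IL-17A and 148, 86.5 and 88.9 with IL-17A, and these last groups did not overlap. Sqle was 205, 86.3 and 95.8 in control and 92.9, 102, 31.5 and 37.1 with DOX. It was 84.3, 53.7 and 31.9 in DOX+IL-17A cells and 124, 74.8 and 89.4 with IL-17A. All 3 DOX+IL-17A libraries lay below the lowest control library, though 84.3 and 86.3 are close.

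Of the lanosterol enzymes, Lss was 21.8, 28.1 and 12.5 in control and 37.4, 29.8, 11.04 and 8.85 with DOX. It was 26.0, 12.8 and 5.56 with DOX+IL-17A and 33.0, 12.7 and 12.2 with IL-17A, with every pair of groups overlapping. Cyp51 was 485, 208 and 211 in control and 249, 225, 75.1 and 79.4 with DOX. It was 189, 99.9 and 99.5 with DOX+IL-17A and 453, 174 and 236 with IL-17A. Its DOX+IL-17A libraries lay below all control libraries, and its DOX libraries did so only in replicates 3 and 4.

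**Figure D1:**
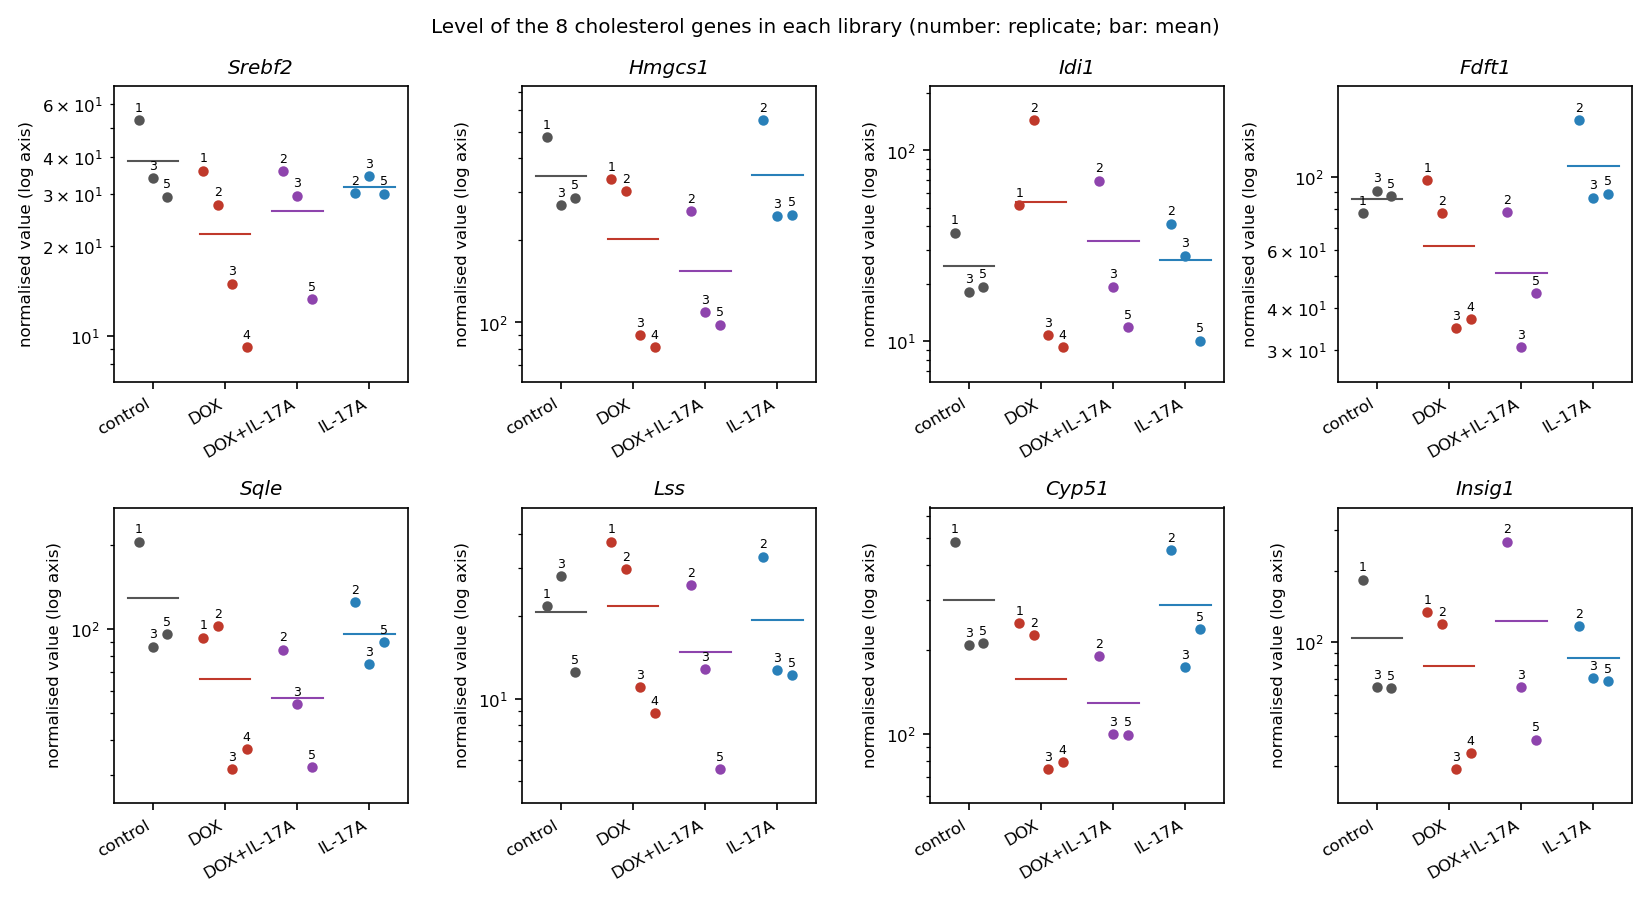
Normalised value (log axis) of each of the 8 genes in the 13 libraries, by condition, with replicate numbers beside the points and bars for condition means. DOX replicates 1 and 2 lie above DOX replicates 3 and 4 in all 8 panels, and DOX+IL-17A replicate 2 is the highest of its group in all 8.

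The 8 genes differed strongly between libraries of 1 condition, and they did so together. This pattern was noticed in the values and is given as a description. DOX replicates 1 and 2 were above DOX replicates 3 and 4 in 8 of 8 genes, against 22.89% of all tested genes. DOX+IL-17A replicate 2 was highest of its group in 8 of 8 (34% of all tested genes), IL-17A replicate 2 in 7 of 8 (34.21%, the exception being Srebf2) and control replicate 1 in 6 of 8 (41.07%, the exceptions being Fdft1 and Lss). All 4 features held for 5 of the 8 genes and for 1.835% of all tested genes. Among 14 other enzymes of sterol synthesis, the DOX order held in 13, the DOX+IL-17A order in 12, the IL-17A order in 9, the control order in 11, and all 4 in 6.

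The SD between libraries of a condition, on the log2 scale, was 0.57 for Fdft1, 0.63 for Srebf2, 0.70 for Sqle, 0.75 for Cyp51, 0.82 for Hmgcs1, 0.87 for Lss, 1.05 for Insig1 and 1.33 for Idi1. The median was 0.79 for the 8 genes and 0.43 for all tested genes. Averaged over the 8 genes, the log2 deviation from the condition mean was 0.88 and 0.90 in DOX replicates 1 and 2 and -0.85 and -0.93 in DOX replicates 3 and 4. It was 0.93, -0.22 and -0.71 in DOX+IL-17A replicates 2, 3 and 5, 0.53, -0.20 and -0.33 in control replicates 1, 3 and 5, and 0.57, -0.23 and -0.35 in IL-17A replicates 2, 3 and 5. Over the same libraries, the median deviation of all tested genes stayed between -0.05 and 0.03.

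Depth and markers of other cell types differed between the same libraries. DOX replicates 1 to 4 held 11692332, 8839399, 6477647 and 10489316 reads. The high library had the fewest reads of its group in control (6583757 in replicate 1) and in DOX+IL-17A (4445592 in replicate 2), but not in IL-17A (9923805 in replicate 2, against 6598088 and 13771197). The summed muscle markers were 133 and 16.9 in DOX replicates 1 and 2 and 3.64 and 3.31 in DOX replicates 3 and 4. Red blood cell markers (3 of 5 listed) were 66.5 and 5.47 against 3.92 and 1.34, and fibroblast and endothelial markers 62.2 and 39.9 against 35.9 and 23.1. All 3 lists were thus higher in the DOX libraries where the 8 genes were higher. They were also highest in control replicate 1 (21.2, 14.4 and 97.6) and in DOX+IL-17A replicate 2 (6.34, 3.89 and 51.7), the high libraries of their groups, and not in IL-17A replicate 2 (3.15, 0.563 and 35.9). The remaining lists did not follow this order throughout. Immune markers were also higher in DOX replicates 1 and 2 than in 3 and 4, and highest in IL-17A replicate 2 (13.07). However, they were lowest of their group in control replicate 1 (1.523) and DOX+IL-17A replicate 2 (8.793). Epithelial markers were higher in DOX replicates 1 and 2 and highest in control replicate 1 (2248), but not in DOX+IL-17A or IL-17A replicate 2. Liver markers were 0 in DOX replicates 1 and 2. The replicate number followed the pattern in every condition. Averaged over the 8 genes, libraries numbered 1 or 2 lay above their condition mean and those numbered 3, 4 or 5 below it. The part of depth, of these markers and of the replicate number in the shared pattern was not tested.

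**Figure D2:**
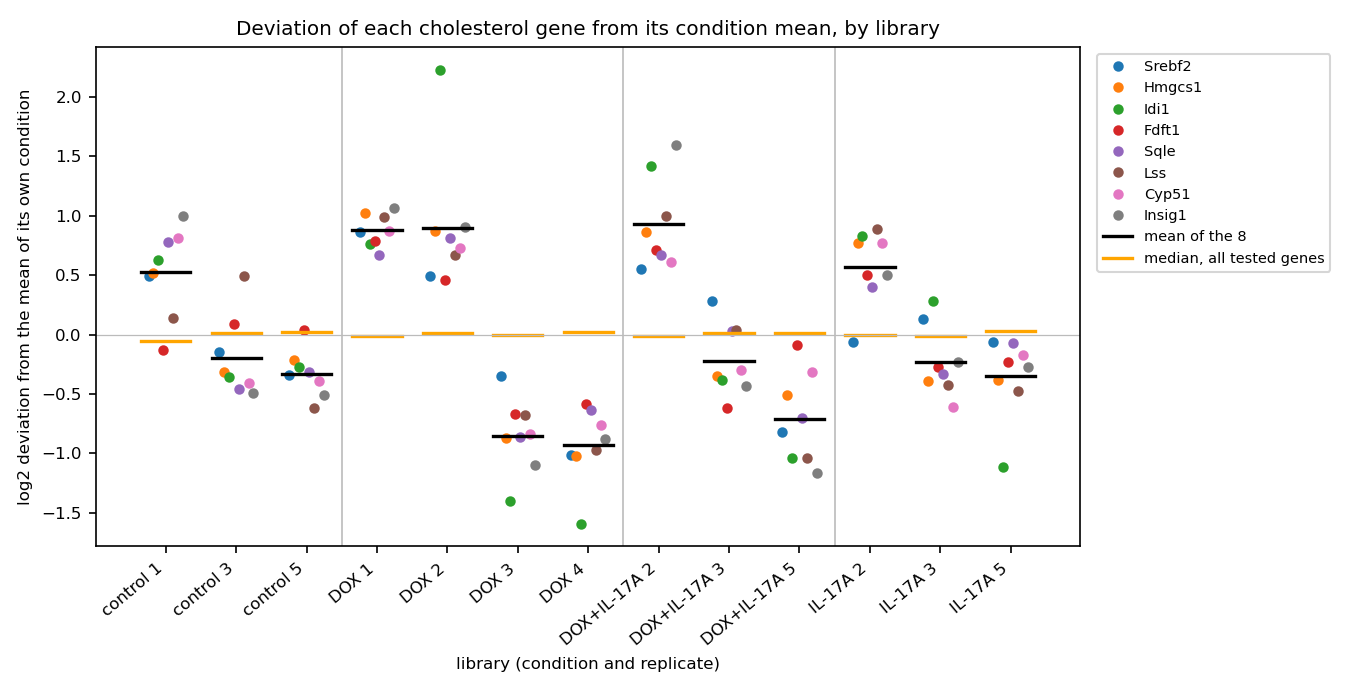
Log2 deviation of each of the 8 genes from the mean of its own condition (points), their mean (black) and the median of all tested genes (orange), by library. The black bars range from -0.93 in DOX replicate 4 to 0.93 in DOX+IL-17A replicate 2, while the orange bars stay near 0.

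Within conditions, the Pearson correlation between pairs of the 8 genes over the 13 libraries ran from 0.58 (Srebf2 with Fdft1) to 0.96 (Hmgcs1 with Cyp51), with a median of 0.83 over 28 pairs. Over all libraries without removing condition means it ran from 0.50 to 0.98, with a median of 0.77. Each gene followed the mean of the other 7, least for Idi1 (r = 0.70) and most for Hmgcs1 (r = 0.96). All of these correlations share the same 13 libraries and are descriptive.

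The first question is what doxorubicin did to the 8 genes. The mean of 6 of the 8 genes was lower with DOX than in control cells, but none passed the test. Idi1 was higher (means of 54.0 and 24.9), and Lss had nearly equal means (21.8 and 20.8), with a log2 difference of -0.10 that turned to 0.07 by edgeR or with scaling by library size and to 0.03 by DESeq2. By limma on log2(value + 1), with Benjamini-Hochberg adjustment over all tested genes, 0 of 8 were called (adjusted p under 0.05 with more than a 2-fold difference), against 15.3% of all tested genes. Cyp51 differed by -1.03 log2 units (SE 0.46, 95% interval -2.01 to -0.05, limma adjusted p = 0.119) and Sqle by -1.03 (SE 0.43, -1.95 to -0.11, limma adjusted p = 0.0983). These intervals reach from nearly no change to a 4-fold drop. Hmgcs1 differed by -1.0 (SE 0.50, limma adjusted p = 0.156) and Srebf2 by -0.92 (SE 0.41, limma adjusted p = 0.12). Fdft1 differed by -0.60 (SE 0.37), Insig1 by -0.53 (SE 0.63), Lss by -0.10 (SE 0.55) and Idi1 by 0.34 (SE 0.79), with limma adjusted p between 0.253 and 0.913. The interval of Idi1, from -1.35 to 2.02, leaves its direction unknown. When the replicate number was added to this fit as a block, 3 of 8 genes were called, all lower. They were Cyp51 (-1.12, limma adjusted p = 0.00535), Hmgcs1 (-1.07, limma adjusted p = 0.0117) and Sqle (-1.17, limma adjusted p = 0.017). Of all 12319 tested genes, the block called 837 higher and 540 lower. Whether the numbers pair the libraries is not settled.

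In the fit without this block, 3 of 8 genes (Srebf2, Sqle and Cyp51) were lower with DOX at an unadjusted limma p under 0.05. None was higher at this p, and 16.1% of all tested genes were lower. DOX and control libraries did not overlap for 0 of 8 genes, while 15.2% of all tested genes were lower with no overlap. The median log2 fold change was -0.76 over the 8 genes and 0.09 over all tested genes. Without DOX replicate 1, Srebf2 differed by -1.21 (limma adjusted p = 0.0541), Cyp51 by -1.32 (limma adjusted p = 0.0632), Sqle by -1.26 (limma adjusted p = 0.0687) and Hmgcs1 by -1.34 (limma adjusted p = 0.0723), while Insig1 was at -0.88, Fdft1 at -0.86, Lss at -0.43 and Idi1 at 0.08, and still none was called. Leaving out other libraries moved the values both ways. Without DOX replicate 2, Sqle was at -1.30 (limma adjusted p = 0.0557) and Cyp51 at -1.27. Without control replicate 3 or 5, Sqle was at -1.26 and -1.19 and Cyp51 at -1.24 and -1.23. Without control replicate 1, the differences were -0.74 for Hmgcs1, -0.68 for Srebf2, -0.64 for Sqle, -0.63 for Cyp51 and -0.03 for Insig1, whereas Fdft1 (-0.66) and Idi1 (0.65) moved away from 0. Without DOX replicate 3 or 4, Srebf2 was at -0.81 and -0.59, Hmgcs1 at -0.71 and -0.66, Fdft1 at -0.37 and -0.40, and Insig1 at -0.16 and -0.23. The summed epithelial markers were lower in every DOX than in every control library, and their part in these differences was not tested.

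The second question is the effect of doxorubicin in cells that also received IL-17A, a comparison that shares no library with the first. Both comparisons still use the same estimate of the spread, which came from all 13 libraries. Here too none of 8 was called by limma, against 9.84% of all tested genes. Hmgcs1 differed by -1.20 (SE 0.53, limma adjusted p = 0.149), Fdft1 by -1.12 (SE 0.39, 95% interval -1.96 to -0.29, limma adjusted p = 0.0699) and Cyp51 by -1.09 (SE 0.49, limma adjusted p = 0.155). These are the 3 genes with an unadjusted p under 0.05, all lower, against 14.0% of all tested genes lower. Fdft1 alone had groups that did not overlap, 1 of 8 against 15.5% of all tested genes. With the replicate block, Hmgcs1, Fdft1 and Cyp51 were called, all lower, and of all 12319 tested genes 679 higher and 678 lower. Without this block, Fdft1 was called when only these 2 groups were fitted (limma adjusted p = 0.048). It was also called without DOX+IL-17A replicate 2 (-1.48, limma adjusted p = 0.0415) and without control replicate 1. Without IL-17A replicate 2, Hmgcs1 was at -0.81, Fdft1 at -0.87 and Cyp51 at -0.71. Sqle differed by -0.83, Lss by -0.45, Srebf2 by -0.36, Insig1 by 0.08 and Idi1 by 0.14, and the median was -0.64 against 0.02 over all tested genes. Side by side, Hmgcs1 and Cyp51 were lower by about 1 log2 unit in both doxorubicin comparisons, and Srebf2 was at -0.92 in the first and -0.36 in the second.

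Both agents together were also set against control, which reuses libraries of both comparisons above. None of 8 was called, against 12.9% of all tested genes. Hmgcs1 (-1.24, SE 0.53, limma adjusted p = 0.118), Sqle (-1.17, SE 0.46, limma adjusted p = 0.0933) and Cyp51 (-1.16, SE 0.49, limma adjusted p = 0.115) had an unadjusted p under 0.05, 3 of 8 against 15.3% of all tested genes lower. The same 3 genes had groups that did not overlap, against 14.5% of all tested genes. With the replicate block, Hmgcs1, Sqle and Cyp51 were called, all lower, and of all 12319 tested genes 637 higher and 557 lower. Without this block, Sqle was called by DESeq2 on reads recovered from the values (-1.22, DESeq2 adjusted p = 0.0484). Without control replicate 1, Hmgcs1 was at -0.98, Sqle at -0.78 and Cyp51 at -0.76. The median was -0.73 for the 8 genes and 0.04 for all tested genes.

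The third question is what IL-17A did. IL-17A alone differed from control by -0.34 (Sqle, 95% interval -1.32 to 0.64) to 0.29 (Fdft1, -0.54 to 1.12), with a median of -0.11, none called by limma (adjusted p of 0.96 or more) against 0.00812% of all tested genes, which is 1 gene. Added to DOX, it gave differences of -0.52 (Lss, 95% interval -1.68 to 0.64) to 0.47 (Insig1, -0.87 to 1.80), with a median of -0.18 and a limma adjusted p of 0.998 for each of the 8, none being called against 0.438% of all tested genes. Without DOX replicate 1 these differences ran from -0.19 (Lss) to 0.82 (Insig1), again with none called, and 5 of the 6 negative ones turned to between 0.02 and 0.16. The difference between these 2 effects of IL-17A ran from -0.53 for Fdft1 to 0.61 for Insig1 (limma adjusted p of 0.901 or more), and 0% of all tested genes passed for it (199 higher and 357 lower had an unadjusted limma p under 0.05, and edgeR called 0 and DESeq2 18). The intervals are wide. For Insig1 that of the last difference ran from -1.34 to 2.56, so that neither a large rise nor a large fall could be told from none.

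**Figure D3:**
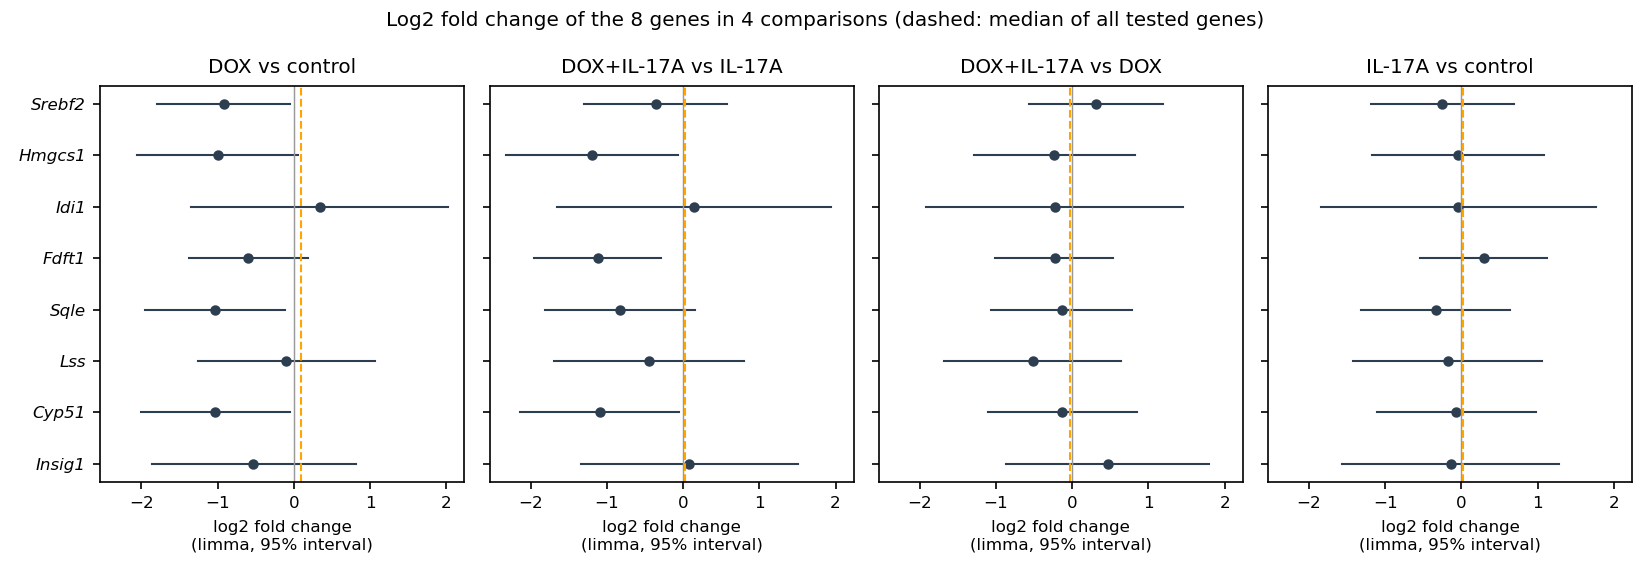
Log2 fold change (points) with 95% interval (lines) of the 8 genes in 4 comparisons by limma, with 0 as a solid line and the median of all tested genes dashed. With doxorubicin most points lie left of 0 and most lines cross it, and the points for IL-17A lie around 0.

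The rest of the pathway was summarized by role, with genes named by a rule of size among those at an adjusted p under 0.05. Of 14 other enzymes of sterol synthesis, 10 were lower with DOX and 2 fell at a limma adjusted p under 0.05, against 9.71% of all tested genes. Pmvk, which phosphorylates phosphomevalonate, fell from a mean of 41.4 to 11.3 (-1.58, SE 0.46, limma adjusted p = 0.0233). Dhcr7, which makes the last reduction of one branch to cholesterol, fell from 29.3 to 12.5 (-1.27, SE 0.42, limma adjusted p = 0.0416), and its groups overlapped. Pmvk no longer passed without control replicate 1, DOX replicate 3 or DOX replicate 4 or in the fit of 2 groups (-1.93 to -0.93 when a library was left out). Dhcr7 held in 6 of 13 fits without a library (-1.52 to -0.96) and was lost by edgeR, with scaling by library size and in the fit of 2 groups. Without DOX replicate 1 both passed (limma adjusted p of 0.0144 and 0.0337). With DOX+IL-17A against IL-17A, 10 of the 14 were lower and none passed, against 6.75% of all tested genes lower, and the medians of the list were -0.71 and -0.25 in the 2 comparisons.

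Of 10 genes of SREBP processing and sterol sensing, 7 were higher and 3 lower with DOX, with a median of 0.13. At a limma adjusted p under 0.05, 1 of 10 fell with DOX, against 9.71% of all tested genes. Against IL-17A 1 of 10 fell, against 6.75%. Mbtps1, the Golgi protease that makes the first cut in SREBP, fell from 222 to 160 (-0.48, SE 0.16, limma adjusted p = 0.0389) and from 217 to 149 against IL-17A (-0.54, SE 0.17, limma adjusted p = 0.0429), both drops being under 2-fold. It did not pass by edgeR, with scaling by library size, in the fit of 2 groups or with the replicate block, in either comparison. It held in 6 and 1 of 13 fits without a library. Without DOX replicate 1 its limma adjusted p was 0.0423 and 0.055. Scap (0.52, limma adjusted p = 0.296), Srebf1 (0.51, limma adjusted p = 0.61) and Insig2 (0.08, limma adjusted p = 0.871) did not pass with DOX.

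Uptake and intracellular transport was a list of 15 genes, of which 13 were tested. With DOX 9 were lower, and 3 of 13 fell at an adjusted p under 0.05, against 9.71% of all tested genes. Stard4, a cytosolic sterol carrier, fell from 65.2 to 22.3 (-1.45, SE 0.45, limma adjusted p = 0.0314). Lrp1, an endocytic receptor, fell from 56.7 to 25.3 (-1.17, SE 0.31, limma adjusted p = 0.0152). Lipa, the lysosomal acid lipase that frees cholesterol from its esters, fell from 25.6 to 13.1 (-0.92, SE 0.28, limma adjusted p = 0.0299). Against IL-17A only Lipa passed, 1 of 13 against 6.75% of all tested genes (26.1 to 12.5, -1.08, SE 0.30, limma adjusted p = 0.0284). In the comparison with control, Lrp1 was lost only without DOX replicate 3, Stard4 without control replicate 1, DOX replicate 3 or DOX replicate 4, and Lipa without control replicate 5, DOX replicate 3 or DOX replicate 4. Stard4 was also lost in the fit of 2 groups, and Lipa with scaling by library size and with the replicate block. All 3 passed without DOX replicate 1 (limma adjusted p of 0.0099 to 0.0373). In the comparison with IL-17A, Lipa held in 8 of 13 fits without a library and was lost with scaling by library size and in the fit of 2 groups.

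Efflux, esterification and oxysterol genes were sparse in these cells, with 6 of 12 tested, and none passed in either comparison. In the fatty acid arm, which SREBP-1 governs, 10 of 11 tested genes were lower with DOX (median -0.71), and 3 of 11 fell at an adjusted p under 0.05, against 9.71% of all tested genes. Against IL-17A, 2 of 11 fell, against 6.75%. They were Acaca and Gpam, the latter near the limit of detection (means of 0.0539 with DOX+IL-17A and 1.70 with IL-17A). Scd2 and Scd1, the stearoyl-CoA desaturases, fell from 1349 to 310 (-2.05, SE 0.42, limma adjusted p = 0.00372) and from 98.6 to 31.1 (-1.66, SE 0.49, limma adjusted p = 0.024). Acaca, which makes malonyl-CoA, fell from 72.8 to 25.5 (-1.48, SE 0.23, limma adjusted p = 6.3e-04) and, against IL-17A, from 67.1 to 31.3 (-1.05, SE 0.25, limma adjusted p = 0.0129). These 3, and of the rest of the list only Me1, were lower with no overlap between DOX and control libraries, as were 15.2% of all tested genes. Scd2 and Acaca passed in all 13 fits without a library and in all 9 other settings against control, Acaca was lost against IL-17A without IL-17A replicate 5, and Scd1 was lost without control replicate 1, DOX replicate 3 or DOX replicate 4 and in the fit of 2 groups. Of 8 tested genes of other mevalonate branches, Ggps1, which makes geranylgeranyl diphosphate, rose from 19.3 to 31.7 (0.70, SE 0.22, limma adjusted p = 0.0363), and 6 of 8 were higher (median 0.31). Ggps1 was thus 1 of 8 that rose, against 12.4% of all tested genes. It held in 6 of 13 fits without a library and was lost without DOX replicate 1 (limma adjusted p = 0.0733), any other DOX library, control replicate 1, control replicate 3 or IL-17A replicate 3. Ggps1 was also lost with the replicate block.

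**Figure D4:**
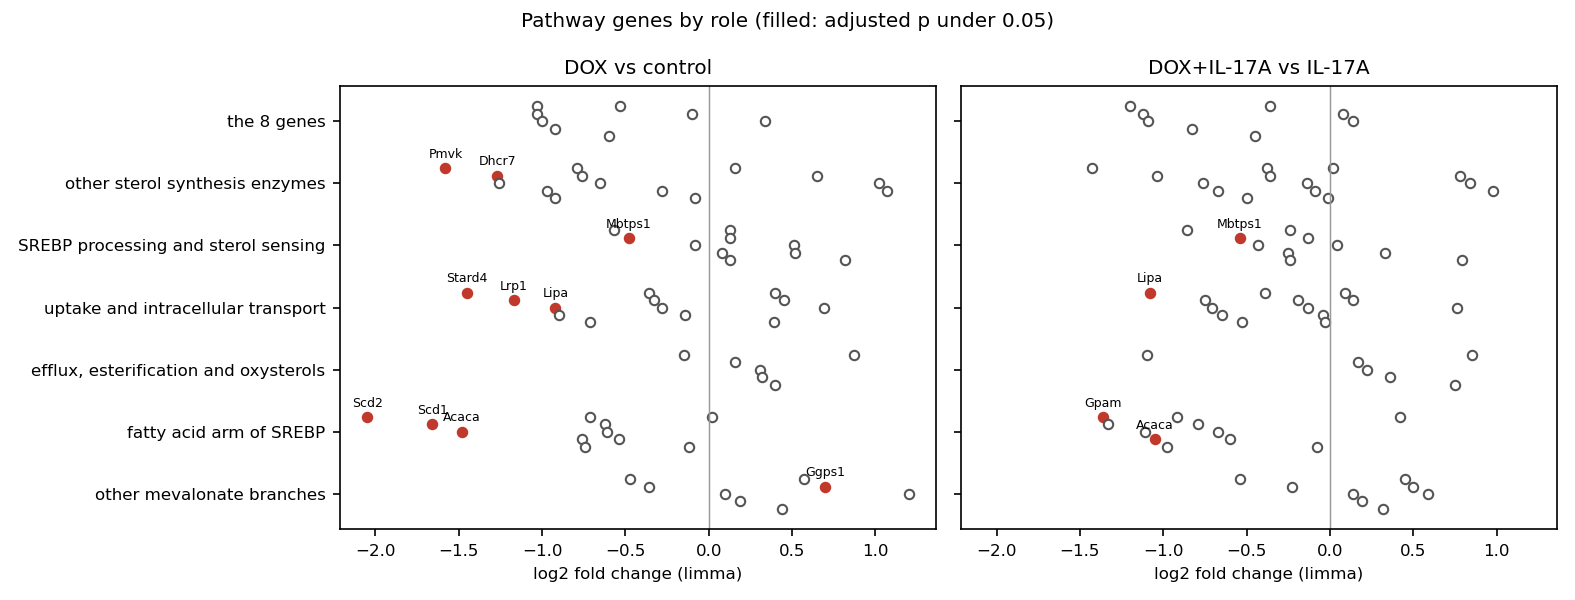
Log2 fold change of the 8 genes and of the tested genes of 6 other lists, DOX against control (left) and DOX+IL-17A against IL-17A (right), filled where the limma adjusted p was under 0.05. The 8 genes have no filled point, and the filled points of sterol enzymes, uptake and fatty acid genes lie to the left of 0. Gpam, filled on the right, was near the limit of detection (means of 0.0539 and 1.70).

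The genes whose levels followed the 8 most closely were sought among 11575 other tested genes averaging 10 reads or more, as the Pearson correlation over 13 libraries with the mean of the standardized log2 values of the 8. Among the top 5 were Fdps, the farnesyl diphosphate synthase and the highest (r = 0.96), Eps8, an adaptor of EGF receptor signalling and actin (0.94), and Elovl6, a fatty acid elongase (0.93). For Insig1 alone the top 5 were Sdc4, a cell surface proteoglycan (0.96), Lipg, an endothelial lipase (0.95), the sterol enzymes Nsdhl (0.94) and Msmo1 (0.89), and Uap1l1 (0.90). These coefficients describe shared libraries and carry no test.

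Across lists, r was above 0.8 for 6 of 14 other sterol enzymes (42.86%), 4 of 10 genes of the fatty acid arm (40%) and 1 of 13 uptake genes (Stard4), against 0.4233% of all 11575 genes. None of the SREBP processing, efflux or other mevalonate branch genes exceeded 0.8. Lbr (r = -0.25) and Tm7sf2 (0.04), which both encode sterol C14 reductases, were the sterol enzymes least like the 8 over all libraries. Within conditions, after removing condition means, 8 of the 14 sterol enzymes were above 0.8, against 1.166% of all genes. Hsd17b7 and Sc5d, at 0.32 and 0.33 over all libraries, were at 0.83 and 0.91 within conditions, and Tm7sf2 was at 0.66, above Acat2 (0.42), Pmvk (0.46) and Ebp (0.62).

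**Figure D5:**
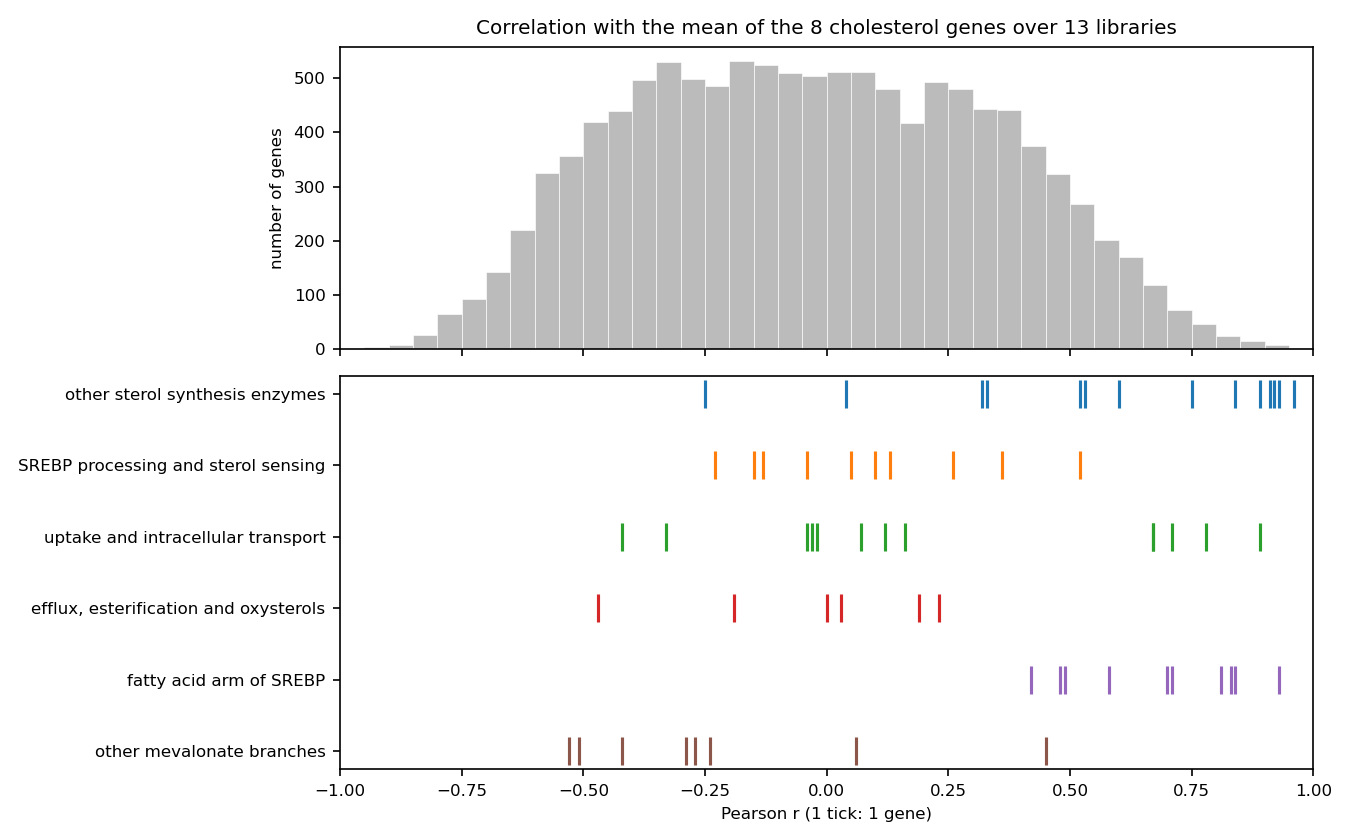
Pearson correlation of 11575 tested genes with the mean of the 8 genes over 13 libraries (upper, number of genes per bin) and of the genes of 6 lists (lower, 1 tick per gene). Sterol synthesis genes run from -0.25 (Lbr) to 0.96 (Fdps), with a median of 0.68. Fatty acid genes run from 0.42 to 0.93, with a median of 0.71, whereas SREBP processing genes reach no more than 0.52.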

How the data were processed

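RNA of 4T1-Thy1.1 cells was sequenced in 13 QuantSeq 3' libraries with single-end reads of 75 bases. Per the study's methods and the submitters' processing notes, reads were checked with FastQC, trimmed with Trimmomatic, aligned with STAR to mm10, counted per gene with featureCounts and scaled by TMM. How reads mapping to several places were handled is not given in the sources used here. The authors deposited 1 normalized signal per gene and library. A library's values were all whole multiples of 1 step (100% within 0.01), from which reads were recovered. After 1 duplicate entry was dropped, 13222 genes remained, of which edgeR's filterByExpr kept 12319.

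The test was limma 3.58.1 with trend (R 4.3.3) on log2(value + 1), fitted to all 13 libraries with condition as factor, and Benjamini-Hochberg adjustment. Fold changes on this scale understate those of low genes. Calls needed an adjusted p under 0.05 and a fold above 2. Named genes are the 8 genes, up to 3 per list with the largest change among those at an adjusted p under 0.05 in a doxorubicin comparison or in DOX+IL-17A against DOX, and the 5 genes most correlated with the 8 and with Insig1. Other genes were named after their values were seen. Results of 2 genes are not reported here and are left out of the lists. The members and lists were chosen with earlier results of these data known. edgeR 4.0.16, DESeq2 1.42.0 and voom on recovered reads, other scalings, filters and pseudocounts, a replicate block and leaving out each library were the alternatives. The scripts were tested on simulated data. Figures used matplotlib 3.10.9.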

Additional observations from a re-analysis of the deposited data

How the results depend on the processing

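None of the 8 genes was called in any comparison by voom with limma, by edgeR, with scaling by library size only, with all listed genes, with genes of at least 10 reads on average, with a pseudocount of 0.1 or by the adjusted p alone. DESeq2 called 1 (Sqle, DOX+IL-17A against control), and a fit of only the 2 groups called 1 (Fdft1, DOX+IL-17A against IL-17A). Leaving out each library in turn called 0 to 1 gene in DOX+IL-17A against IL-17A (Fdft1, in 2 of 13 fits) and 0 in the other comparisons. Scaling by library size only moved the median of all tested genes from 0.09 to 0.24 in DOX against control, and the calls from 1127 higher and 761 lower to 1516 higher and 488 lower. Under edgeR on recovered reads these were 940 higher and 816 lower. No value of the 8 genes rested on fewer than 77 reads. Counting error was not compared with the spread between libraries, and having 3 or 4 libraries per group limits the precision.

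The same replicate numbers recur between conditions. Of same-numbered pairs, 8 of 13 correlated above 0.1 in their deviations (mean 0.15, range -0.18 to 0.49). Of different-numbered pairs, 13 of 50 did (mean -0.04, range -0.56 to 0.47), and 7 of 13 libraries correlated best with their own number. These values, taken over all tested genes, do not settle whether the numbers pair the libraries, and the main fit did not pair them. Averaged over the 8 genes, every library numbered 1 or 2 lay 0.53 to 0.93 log2 units above its condition mean. Every library numbered 3, 4 or 5 lay below it, at -0.93 to -0.20. This order was noticed in the values, and its cause was not tested. A replicate block led to 3 calls in DOX against control (Hmgcs1, Sqle and Cyp51), 3 in DOX+IL-17A against IL-17A (Hmgcs1, Fdft1 and Cyp51) and 3 in DOX+IL-17A against control (Hmgcs1, Sqle and Cyp51), all lower, and none in the other comparisons. DOX replicate 4 is alone in its block. Of the other pathway genes named, the block ended the calls of Mbtps1 in both doxorubicin comparisons and of Lipa and Ggps1 against control. With the block the sign turned for Idi1 in DOX+IL-17A vs control (-0.22), Sqle in DOX+IL-17A vs DOX (0.05), Cyp51 in DOX+IL-17A vs DOX (0.02), Idi1 in the difference of the IL-17A effects (0.07) and Cyp51 in the difference of the IL-17A effects (0.02).

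Differences of up to 0.47 in the main fit (Insig1 in DOX+IL-17A vs DOX) changed sign with the setting or when a library was left out. None of these was called, and the cause was not tested. With edgeR quasi-likelihood on recovered reads, the sign turned for Lss in DOX vs control (0.07), Insig1 in DOX+IL-17A vs control (0.24), Hmgcs1 in IL-17A vs control (0.02) and Idi1 in IL-17A vs control (0.10). With DESeq2 on recovered reads, it turned for Lss in DOX vs control (0.03), Insig1 in DOX+IL-17A vs control (0.21) and Idi1 in IL-17A vs control (0.06). With scaling by library size only, it turned for Lss in DOX vs control (0.07) and Insig1 in DOX+IL-17A vs control (0.11). With voom with limma on recovered reads, it turned for Idi1 in DOX+IL-17A vs IL-17A (-0.02), Insig1 in DOX+IL-17A vs IL-17A (-0.06) and Idi1 in DOX+IL-17A vs control (-0.07). The genes whose sign turned when a library of the compared groups was left out are given with their lowest and highest log2 fold change over these fits. In DOX vs control, these were Idi1 (-0.41 to 0.87) and Lss (-0.43 to 0.22). In DOX+IL-17A vs IL-17A, these were Srebf2 (-0.64 to 0.05), Idi1 (-0.56 to 0.66), Lss (-0.95 to 0.07) and Insig1 (-0.71 to 0.66). In DOX+IL-17A vs control, these were Idi1 (-0.60 to 0.62) and Insig1 (-0.86 to 0.52). In IL-17A vs control, these were Hmgcs1 (-0.43 to 0.22), Idi1 (-0.45 to 0.52), Sqle (-0.57 to 0.05), Lss (-0.62 to 0.06), Cyp51 (-0.45 to 0.34) and Insig1 (-0.40 to 0.36). In DOX+IL-17A vs DOX, these were Srebf2 (-0.02 to 0.72), Hmgcs1 (-0.67 to 0.10), Idi1 (-0.94 to 0.51), Fdft1 (-0.59 to 0.08), Sqle (-0.47 to 0.22), Cyp51 (-0.44 to 0.16) and Insig1 (-0.33 to 1.05).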
